A study of Mus musculus with 6 samples.

Results

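Rnu11 and Rnu12 encode the U11 and U12 small nuclear RNAs (snRNAs), the RNAs with which the minor spliceosome first recognises an intron. Their rows were found by gene name, with no threshold on a measured value, and they are 2 of the 5880 transcripts in the deposited table and 2 of its 484 snRNA rows. Small RNA-seq had been performed on exosomes, the small extracellular vesicles that cells shed into their medium, from P19 cells, a mouse embryonal carcinoma line. Libraries 1 to 3 came from exosomes of undifferentiated cells (UD-P19), which were moved to serum-free alpha-MEM with N2 supplement before the medium was collected. Libraries 4, 5 and 6 came from exosomes of P19 neurons (P19N), which were obtained by retinoic acid treatment, grown in neurobasal medium with B27 and N2, exposed to 5-fluorouridine and uridine against dividing cells, and sampled at culture ages of 8, 10 and 12 days. The exposure was repeated after the collection at 8 days, so the libraries at 10 and 12 days had a further exposure that the first lacked. Age, this exposure and replicate cannot be told apart. Both groups derive from the same cell line, and the vesicles of both were purified by differential ultracentrifugation.

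Most introns are removed by the major spliceosome, in which U1 pairs with the 5′ splice site and U2 with the branch site. A small and conserved class, the U12-type introns, is removed by the minor spliceosome, in which U11 and U12 bind together as one particle: U11 takes the place of U1 and U12 that of U2. U4atac and U6atac stand in for U4 and U6, while U5 serves both machineries. These RNAs work in the nucleus and are scarcer in cells than their major counterparts, and U12-type introns occur, among others, in genes of voltage-gated sodium channels, on which neurons depend for firing.

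The sequences below show the bases on which this division of labour rests, in the letters of the GENCODE vM21 transcripts of GRCm38 (T for U), written 5′ to 3′. Capitals mark the stretch that pairs with the splice site or branch site (in U1 this takes in the last bases of the exon) and, in Rnu11 and Rnu12, also the site at which the ring of Sm proteins assembles. Rnu1a1 is shown from base 1 to 30 and Rnu2-10 from base 16 to 60, as the major counterparts.
Rnu11: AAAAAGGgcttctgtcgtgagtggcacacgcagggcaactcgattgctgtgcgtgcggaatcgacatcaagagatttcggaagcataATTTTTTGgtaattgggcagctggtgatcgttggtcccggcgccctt
Rnu1a1: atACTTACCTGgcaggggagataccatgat
Rnu12: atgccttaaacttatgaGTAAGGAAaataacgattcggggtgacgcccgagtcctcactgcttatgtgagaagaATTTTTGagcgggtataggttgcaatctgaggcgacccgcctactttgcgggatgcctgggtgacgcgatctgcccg
Rnu2-10: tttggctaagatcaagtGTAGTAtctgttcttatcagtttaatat
In Rnu11 the capitals are bases 1 to 7 (AAAAAGG) and 88 to 95 (ATTTTTTG), and in Rnu12 bases 18 to 25 (GTAAGGAA) and 75 to 81 (ATTTTTG). Searched on the transcript strand, GTAAGGAA occurred in 4 of the 484 snRNA rows (0.826%), which were Rnu12 and its copies Gm23502, Gm24525 and Gm25703. AAAAAGG occurred in 5 rows (1.03%), Rnu11, its copies Gm22472, Gm24890 and Gm25097, and Gm22805. The Sm letters were less particular, with ATTTTTTG in 14 rows (2.89%) and ATTTTTG in 24 (4.96%). The U1 stretch ACTTACCTG was in 40 rows (8.26%) and the U2 stretch GTAGTA in 31 (6.40%). 

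Rnu11 (ENSMUST00000104135.1) is a single-exon gene of 134 bases on the minus strand at chr4:132270080-132270213. It lies wholly inside Gm28872, a lincRNA of the opposite strand that held 9 counts over the 6 libraries, and its nearest protein-coding genes are Taf12, 4162 bases away, and Gmeb1, 8478 bases away. The RefSeq model of Rnu11 in GRCm38.p6 is shorter, 108 bases, lists mir-801 among its earlier names, and starts 27 bases further in, so that it leaves out the pairing stretch shown above. Rnu12 (ENSMUST00000083242.1) has 151 bases on the plus strand at chr15:83149644-83149794, in an intergenic position 260 bases from Poldip3, which is on the opposite strand. Neither gene falls in the exons or introns of a protein-coding gene.

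Total counts were between 454499 and 762575 in UD-P19 and between 588646 and 887460 in P19N exosomes. The unique counts among them, assumed to be reads matching 1 transcript, were between 337562 and 594544 in UD-P19 and between 226444 and 295192 in P19N. Of the 1286 transcripts with at least 15 counts in all, 309 (24%) differed at an adjusted p of at most 0.05 in edgeR's quasi-likelihood test, 193 (15%) being higher and 116 (9.02%) lower in P19N. With DESeq2 size factors in place of TMM the split was 178 higher and 189 lower. The count also moved with single libraries, to 530 without UD-P19 replicate 2, 201 without P19N replicate 4 and 173 without P19N replicate 5, and without UD-P19 replicate 3 the split turned to 130 higher and 157 lower. The median log2 fold change over all tested transcripts was 0.21 with TMM and between -0.02 and 0.34 under the other scalings. All 10 neuronal symbols listed as markers had counts, with summed counts of 108 to 441 in UD-P19 and 413 to 1051 in P19N, unscaled. Malat1 held most of them (99 to 267 and 342 to 912), and of 13 marker rows tested the 2 called were both Malat1, higher in P19N. Meg3 and Rian did not separate the groups: UD-P19 replicate 2 had 65 Meg3 and 93 Rian counts, above every P19N library (27 to 58 and 27 to 37). For the 3 miR-9 loci every UD-P19 library was at 0, and no single locus had more than 2 counts in a P19N library. Of the 10 undifferentiated-cell symbols listed, the 4 present summed to 16 to 27 counts in UD-P19 and 3 to 5 in P19N. Mir17hg held most of these (15 to 23 and 3 to 5) and was the 1 row tested, lower in P19N. Levels below are counts per 1000000 (CPM) of the TMM-scaled library. They are shares of an RNA pool, so that fewer vesicles carrying an RNA and fewer copies per vesicle cannot be told apart, and the table does not say which part of a transcript the reads covered.

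U12 was more abundant in P19N exosomes. The 3 UD-P19 libraries held 784, 668 and 880 Rnu12 counts and the P19N libraries 3434, 2317 and 1953. In CPM these were 1925, 792 and 1456 in UD-P19 (1391 ± 570, SD, n = 3) and 4046, 3064 and 2725 in P19N (3278 ± 686, SD, n = 3). The groups did not overlap, and every P19N library lay above the highest UD-P19 library; 42% of all tested transcripts did not overlap between the groups, and 25.2% of all tested did not overlap and were higher in P19N. The difference was 2.36-fold (95% interval 1.34 to 4.15), a log2 fold change of 1.24 ± 0.38 (SE) with an adjusted p of 0.0257 in edgeR's quasi-likelihood test. The call depended on single libraries: it was lost without UD-P19 replicate 3 (adjusted p = 0.0746 by edgeR) and without P19N replicates 4, 5 or 6 (0.163, 0.0736 and 0.0642), while the log2 fold change stayed between 0.96 and 1.54.

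U11 did not pass the test. Rnu11 had 924, 607 and 473 counts in UD-P19 and 1908, 1391 and 1075 in P19N exosomes. In CPM these were 2269, 719 and 783 in UD-P19 (1257 ± 877, SD, n = 3) and 2248, 1840 and 1500 in P19N (1862 ± 375, SD, n = 3). UD-P19 replicate 1 was as high as the highest P19N library, whereas replicates 2 and 3 were below every P19N library, so the groups overlapped. The fold was 1.48 with a 95% interval from 0.778 to 2.83 (log2 fold change 0.57 ± 0.44, SE; adjusted p = 0.347 by edgeR), an interval that holds both no change and the fold measured for Rnu12. Without UD-P19 replicate 1 the log2 fold change was 1.31 with an adjusted p of 0.0399 by edgeR, and 1.03 with 0.0667 when the count minimum was also applied afresh to the remaining libraries. Replicate 1 also had the smallest total count of the UD-P19 libraries, and the part of library size in its value was not tested. Its 924 counts had a 95% Poisson interval of 865 to 986. This interval covers counting error only.

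**Figure D1:**
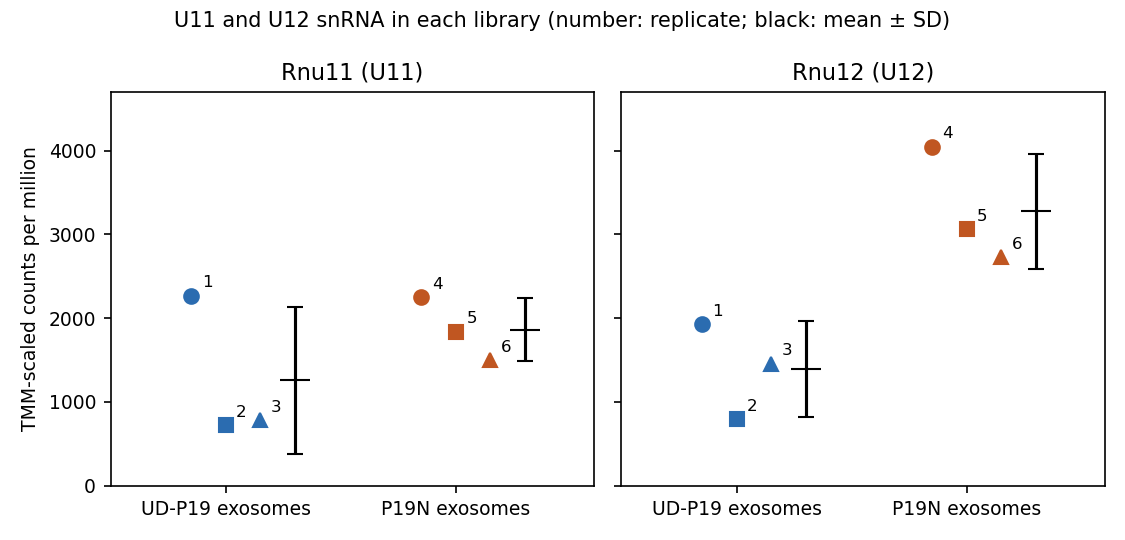
TMM-scaled counts per 1000000 (CPM) of Rnu11 (left) and Rnu12 (right) in each exosome library, with the replicate number beside each point and the mean ± SD of 3 libraries in black. All 3 P19N libraries are above all UD-P19 libraries for Rnu12, whereas for Rnu11 UD-P19 replicate 1, at 2269, is level with P19N replicate 4, at 2248.

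Within P19N exosomes both members had their highest CPM at 8 days and their lowest at 12 days, with 1 library at each age, a further exposure to 5-fluorouridine before the older ages, and therefore no test. Per 1000000 total counts, without TMM factors, Rnu11 was 2150, 1830 and 1826 and Rnu12 was 3870, 3048 and 3318 at 8, 10 and 12 days, so for Rnu12 the order of the older ages turned with the scaling. In UD-P19 both members were highest in replicate 1 on either scale. Replicate 3 exceeded replicate 2 for Rnu12 (1456 against 792 CPM) and lay close to it for Rnu11 (783 against 719 CPM), and the latter order turned without TMM factors (620 against 861 per 1000000 total counts).

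The major-spliceosome counterparts were more abundant in P19N exosomes. The U1-sized snRNA rows (median length 164 bases, 50 rows, 37 of which were tested) had 33 rows higher and 0 lower in P19N, with a median log2 fold change of 3.85. Rnu1a1 rose from 1468, 1628 and 1084 CPM in UD-P19 to 20639, 21225 and 18098 in P19N, a log2 fold change of 3.84 ± 0.34 (SE; adjusted p = 5.57e-07 by edgeR). Rnu1b1, Rnu1b2 and Rnu1b6, further U1 genes, had log2 fold changes of 3.73, 3.75 and 3.82, but the reads of these 4 genes are shared, with 0 unique counts at each, so that they do not count as separate measurements. All 13 tested rows of the U2-sized class (median length 191 bases, 21 rows in the table) were higher in P19N, with log2 fold changes between 1.93 and 3.06. Unique counts were found in 8 of these 21 rows and in 24 of the 50 U1-sized rows. The rows of either class therefore do not count as separate measurements. Rnu2-10 rose from 1157, 414 and 814 CPM to 4886, 4386 and 2033 CPM, by 2.25 ± 0.45 on the log2 scale (SE; adjusted p = 0.00188 by edgeR).

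When the rows of each size class were summed before the fit, the log2 fold change was 3.84 ± 0.30 for U1-sized and 2.09 ± 0.41 for U2-sized rows (SE; adjusted p = 6.51e-06 and 0.00335 by edgeR). U1-sized rows made up 1.77% to 3.22% of the counts in UD-P19 libraries and 42.2% to 43.9% in P19N libraries. The U2-sized share was 0.462% to 0.967% against 2.32% to 3.89%. Few counts of either class were unique, 0.403% to 0.745% for the U1-sized rows. How a read matching several rows was counted is not given, so these shares and the library totals may depend on it. Rnu11 took 0.0620% to 0.203% of the counts in UD-P19 and 0.183% to 0.215% in P19N, and Rnu12 took 0.0948% to 0.173% and 0.305% to 0.387%. U12 and U2 thus both passed the test in the same direction, U1 had the largest fold of these 4 RNAs, and U11 did not pass.

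**Figure D2:**
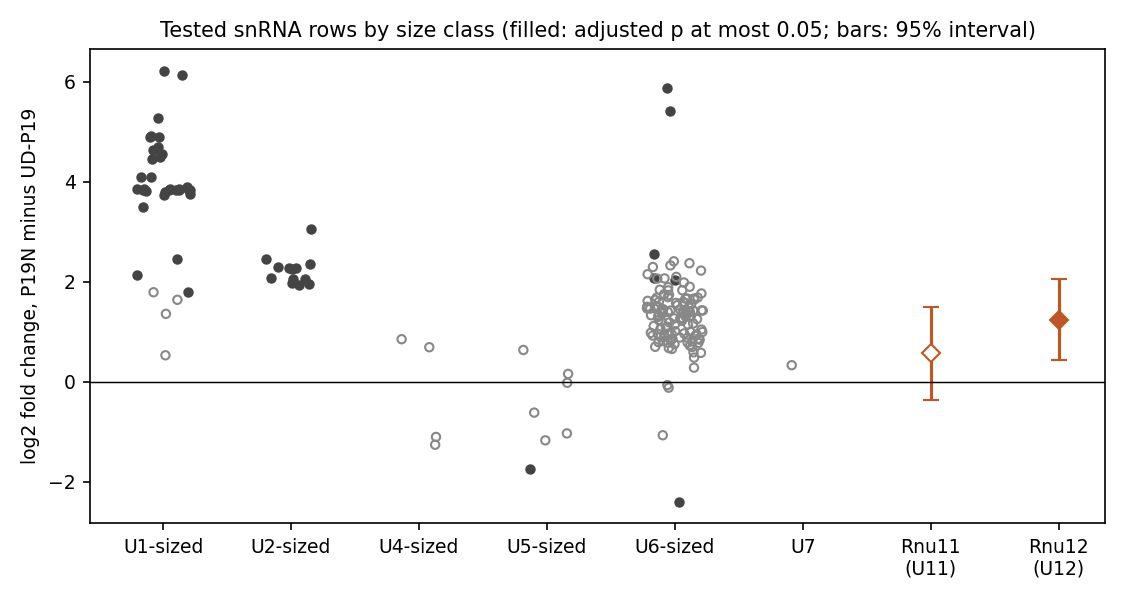
Log2 fold change (P19N minus UD-P19) of every tested snRNA row, 1 point per row, by size class, with Rnu11 and Rnu12 as diamonds with 95% intervals. Filled symbols have an adjusted p of at most 0.05; U1-sized rows centre on 3.85 and U2-sized rows on 2.25, above Rnu12 at 1.24 and Rnu11 at 0.57, and many rows within a class share reads.

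A ratio taken inside each library does not depend on scaling and sets each minor snRNA against its counterpart. There were 0.0730, 0.0268 and 0.0350 Rnu11 counts per U1-sized count in UD-P19 libraries, and 0.00490, 0.00432 and 0.00433 in P19N libraries. The means were 0.0449 ± 0.0247 and 0.00452 ± 0.000333 (SD, n = 3), and the mean log2 difference was -3.18, so that by geometric means the ratio was 9.07-fold lower in P19N. Put the other way, 1 Rnu11 count stood beside 13.7 to 37.4 U1-sized counts in UD-P19 and beside 204 to 232 in P19N. Nearly all of these U1-sized counts were not unique, so the level of the ratio may depend on how shared reads were counted. The groups did not overlap, and the exact two-sided permutation test gave p = 0.1, the smallest that 3 libraries against 3 allow, or 0.15 adjusted over the 3 ratios tested. The difference stayed between -3.49 and -2.76 when single libraries were left out, and between -3.21 and -3.05 with unique counts, exact counts, copies summed, or near-identical U1 rows only. Summing copies added few counts, and near-identical rows alone gave the same -3.18, so these settings say little about stability. A lower ratio to U1-sized counts is not particular to U11, because the U1-sized sum itself rose by 3.84 on the log2 scale. The median over all transcripts tested in that fit was -0.16, so a typical transcript fell against U1-sized counts as well. Rnu7 (0.33) and the U5-sized sum (-0.55) had smaller log2 fold changes than Rnu11 (0.57). How many other transcripts fell against U1-sized counts without overlap was not counted. 

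For the branch-site pair the difference was smaller. UD-P19 libraries had 0.178, 0.205 and 0.205 Rnu12 counts per U2-sized count and P19N libraries 0.10, 0.0784 and 0.143. The means were 0.196 ± 0.0154 and 0.107 ± 0.0329 (SD, n = 3). By geometric means the ratio was 1.88-fold lower in P19N, a mean log2 difference of -0.91 with no overlap (exact permutation test, p = 0.1, adjusted 0.15). The U2-sized sum rose by 2.09 on the log2 scale, against 1.24 for Rnu12, and other transcripts were not set against it. In the fit with summed classes the median over all tested transcripts was -0.16, so a lower ratio to U2-sized counts is not particular to U12. The difference in the ratio was not seen on unique counts. On these the ratio was 1.69, 1.74 and 2.26 in UD-P19 and 1.83, 1.14 and 2.33 in P19N, a log2 difference of -0.15 with overlapping groups (exact permutation p = 0.9). Only 4.64% to 9.0% of the U2-sized counts were unique, and 71.2% of those lay at 1 row, Gm25939, so the ratio on unique counts compares Rnu12 largely with that copy. Of the U1-sized counts 0.403% to 0.745% were unique, and the U11 ratio on those was 18.1, 3.59 and 7.75 in UD-P19 against 0.799, 0.806 and 0.994 in P19N, again without overlap.

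**Figure D3:**
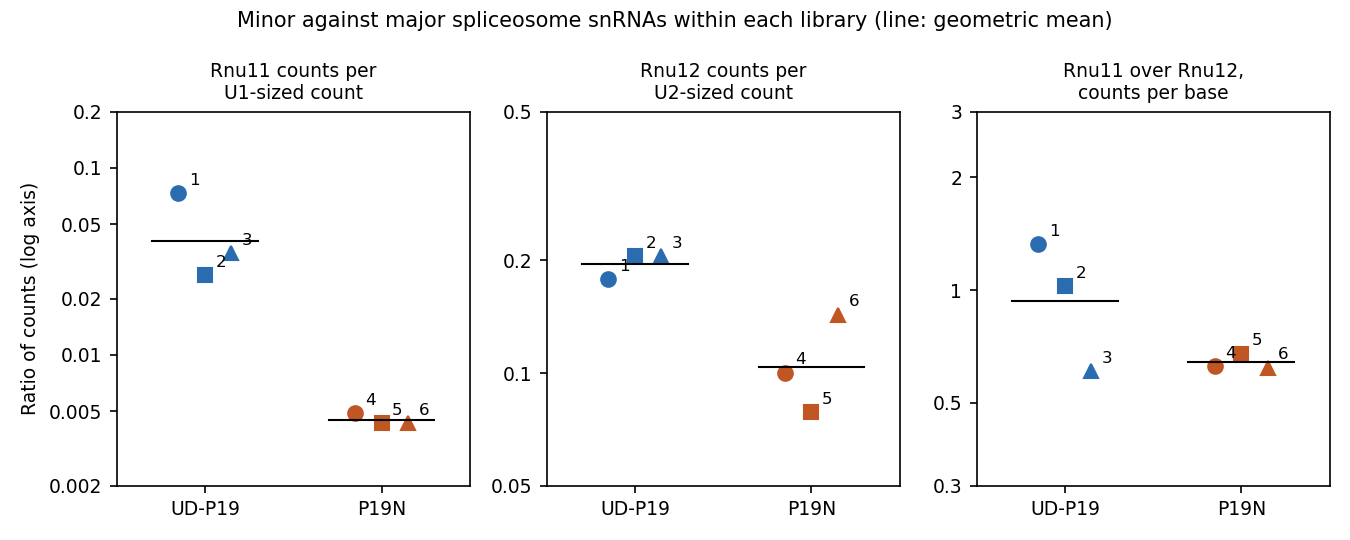
Within-library ratios on log axes for Rnu11 over the summed U1-sized rows (left), Rnu12 over the summed U2-sized rows (middle) and Rnu11 over Rnu12 per base of transcript (right), with replicate numbers beside the points and the geometric mean of each group as a line. Both ratios to the major spliceosome are lower in all 3 P19N libraries, by 9.07-fold for U11 and 1.88-fold for U12 between geometric means, whereas the groups overlap for U11 over U12. On unique counts, which are not drawn, the groups also overlap for Rnu12 over the U2-sized rows.

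U11 and U12 act as one particle, and their balance was compared per base, since the transcripts differ in length. Rnu11 over Rnu12 was 1.33, 1.02 and 0.606 in UD-P19 and 0.626, 0.677 and 0.620 in P19N. The 3 P19N libraries were close to each other (0.641 ± 0.0309, SD), with U12 counted more often per base than U11 in each. The UD-P19 libraries were spread (0.986 ± 0.363, SD), replicates 1 and 2 being above every P19N library and replicate 3 below them all. The log2 difference of -0.55 was not separable from this spread (exact permutation test, p = 0.4 before and after adjustment), so a different response of U11 and U12 was not shown. Per 1000 bases of transcript the mean level was 9381 CPM for Rnu11 and 9212 CPM for Rnu12 in UD-P19, and 13898 and 21710 CPM in P19N.

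Among the other spliceosomal snRNAs, the U4-sized rows (12 in the table) had 4 rows tested, and 0 passed. Their summed log2 fold change was -0.46 ± 0.50 (SE; adjusted p = 0.536 by edgeR), and the class includes Gm23502, which is a copy of U12 by sequence. The U5-sized rows (median length 116 bases), RNAs common to both spliceosomes, had 7 tested, 0 higher and 1 lower, with a summed log2 fold change of -0.55 ± 0.32 (SE; adjusted p = 0.232 by edgeR). Rnu5g, a U5 gene, had 675, 1290 and 852 CPM in UD-P19 and 1071, 969 and 737 CPM in P19N. Of 124 tested U6-sized rows (median length 107 bases) 5 were higher and 1 was lower, and their sum was higher by 1.18 ± 0.48 (SE; adjusted p = 0.0813 by edgeR). No row carried the name Rnu4atac or Rnu6atac, and these were not analysed here. Rnu7, the snRNA of histone pre-mRNA 3′ end processing, which takes no part in splicing, had 28125, 10084 and 22331 CPM in UD-P19 and 31699, 25801 and 18595 CPM in P19N (log2 fold change 0.33 ± 0.36, SE; adjusted p = 0.518 by edgeR). Over all 200 tested snRNA rows other than the members, 59 were higher and 2 lower, with a median log2 fold change of 1.48, between the values of Rnu12 and the U2-sized rows. Many of these rows share reads, so they do not count as separate measurements.

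The members differed in how far their reads could be told from copies elsewhere in the genome. In Rnu11, 100% of the counts in each UD-P19 library and 99.7% to 99.9% in each P19N library were unique. The 3 snRNA rows most like it, Gm22472, Gm24890 and Gm25097, with 89.2% to 92.2% identity over at least 100 bases, held 9, 45 and 1 counts in all. In Rnu12, 76.2% to 86.6% of the counts were unique in UD-P19 and 78.7% to 88.0% in P19N (exact permutation test of the difference, p = 0.6). Its copy Gm24525 (96.6% identity over 149 bases) had 145, 69 and 109 counts in UD-P19 and 485, 427 and 198 in P19N, of which 84 of 1433 were unique. Its log2 fold change was 1.20 ± 0.51 (SE; adjusted p = 0.0957 by edgeR). Gm23502 (96.5% over 141 bases) had 313 counts in all, 2 of them unique, and Gm25703 had 4. On unique counts alone the log2 fold change of Rnu12 was 1.46 and that of Rnu11 0.74, and with all copies summed they were 1.21 and 0.57, so neither call turned on the copies.

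Exact counts, which were assumed to be reads without a mismatch, were a smaller part of U11 than of U12. They were 37.6% to 43.0% of Rnu11 counts in UD-P19 and 44.2% to 46.8% in P19N, without overlap (means 39.4% ± 3.09 and 45.3% ± 1.35, SD, n = 3; exact permutation test, p = 0.1, the smallest possible). For Rnu12 they were 64.5% to 74.6% and 73.5% to 75.1% (p = 0.3 in the same exact test). The share was also higher in every P19N library than in every UD-P19 library for Rnu1a1 (71.9% to 78.0% against 79.2% to 80.6%). The same held for Rnu1b1 (71.0% to 77.4% against 78.9% to 79.4%), Rnu1b2 (71.2% to 78.2% against 78.8% to 79.6%), Rnu2-10 and Rnu5g. The groups overlapped for Rnu1b6 (72.8% to 78.2% against 76.0% to 78.0%) and Rnu7 (66.8% to 75.9% against 74.7% to 74.8%). Summed over all transcripts, exact counts were 259214 of 454499, 311480 of 704725 and 460688 of 762575 in UD-P19. In P19N they were 549728 of 887460, 444008 of 760295 and 378969 of 588646. The groups overlapped in this summed share, which was lower in P19N replicate 5 than in UD-P19 replicate 3. How many transcripts had an exact share without overlap was not counted. The exact share of Rnu11 was below that of Rnu12 in all 6 libraries. On exact counts only, the log2 fold changes were 0.71 for Rnu11 and 1.27 for Rnu12, and the latter alone was called.

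Across the 6 libraries the log2 CPM of Rnu11 and Rnu12 had a Pearson correlation of 0.83, as a description of points that share the 2 groups and the depth of each library. Among the 406 transcripts that averaged 10 counts or more and had unique counts in at least 3 libraries, those nearest to Rnu11 were the U12 copy Gm24525 (0.90), Rpph1, the RNA of ribonuclease P (0.87), Gm28037 (0.84), the snoRNA Snora57 (0.83) and Rnu12 itself. Those nearest to Rnu12 were Gm25514 (0.997), an snRNA row of 135 bases, the snoRNA Snord17 (0.98), Scarna3b, an RNA of Cajal bodies (0.98), the U2-sized Gm24497 (0.98) and the snoRNA Gm24507 (0.98). Snora57, Rpph1 and Gm28037 did not pass the test between the groups, with log2 fold changes of 1.12, 1.14 and 1.05. Scarna3b, Gm25514 and Gm24507 were higher in P19N by 2.84, 2.76 and 2.07 on the log2 scale, from low levels of 2.37 to 44.2 CPM in UD-P19. Snord17, a guide of RNA methylation, was at 0.87 (adjusted p = 0.119 by edgeR) although its groups did not overlap.

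**Figure D4:**
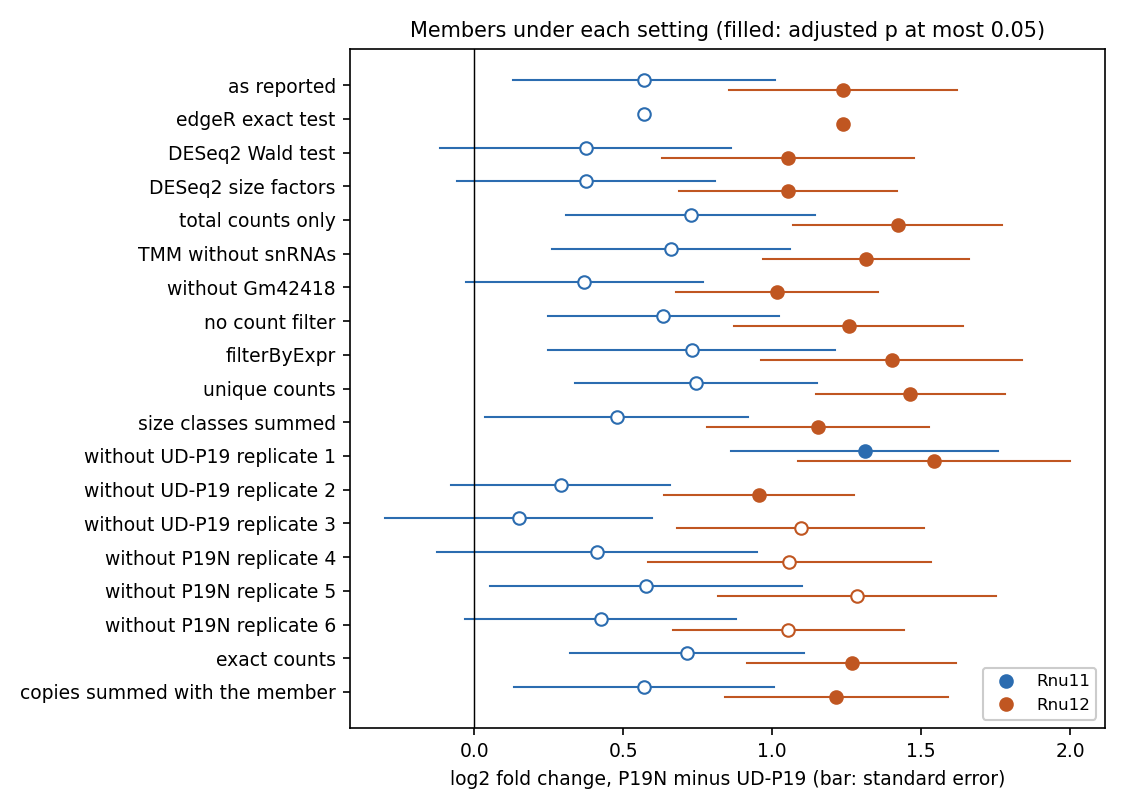
Log2 fold change (P19N minus UD-P19) of Rnu11 and Rnu12 under each scaling, filter, test, count column and omitted library, with standard errors as bars (none for the edgeR exact test) and filled symbols for an adjusted p of at most 0.05. Rnu12 is filled in every setting that keeps all 6 libraries and open in 4 of the 6 that omit one, and Rnu11 is filled only without UD-P19 replicate 1.

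With all 6 libraries kept, 12 other settings gave Rnu12 a log2 fold change of 1.02 to 1.46 and an adjusted p of 0.00707 to 0.0453 in the tools used (edgeR and DESeq2), and all 12 called it. The same settings gave Rnu11 0.37 to 0.74 with an adjusted p of 0.167 to 0.622, and 0 called it. Relative to the median of all tested transcripts, which itself moved with the scaling, Rnu12 was higher by 1.01 to 1.10 and Rnu11 by 0.33 to 0.45 on the log2 scale over TMM and 4 other scalings. These scalings kept all 6 libraries. Without UD-P19 replicate 2, Rnu11 was at 0.29, below a median of 0.54. Without any other single library it stayed above the median, as Rnu12 did in each of these fits.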

How the data were processed

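Exosomal small RNA of 3 UD-P19 and 3 P19N preparations was sequenced as paired reads from NEBNext small RNA libraries. The authors trimmed adaptors, joined read pairs, used CLC Genomics Workbench with default settings to match them to the GRCm38 ncRNA set and deposited counts per transcript without normalization. How a read matching several transcripts was counted is not given in the sources used here. The unique and exact counts used here are the deposited columns named Unique mature 5′ and Exact mature 5′, names made for miRNAs and not defined there for other ncRNAs. By assumption they were read as reads matching 1 transcript, and as reads without a mismatch. Whether they also depend on where a read begins or ends is not stated. Deposited group means, fold changes and p-values are the authors' own comparison and were not used, and 54 per-sample columns were left unused. The paper calls the samples of each group biological replicates and independent exosome preparations. Whether the P19N ages came from separate cultures is not stated, so p-values measure the spread between these preparations.

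Of 5880 rows, 5766 were matched to GENCODE vM21 by transcript identifier. Transcripts with at least 15 counts in total (1286) were tested with edgeR 4.0.16 (R 4.3.3; TMM, quasi-likelihood F test, no covariate, Benjamini-Hochberg adjustment, threshold 0.05), and the fit was tested on simulated data. Alternative tests were DESeq2 1.42.0 and the edgeR exact test that the study had used. Standard errors and intervals come from the fit. Each ratio was tested by exact two-sided permutation of the libraries (20 relabellings, so that p cannot be under 0.1). Copies were found with BLAST 2.17.0 (at least 85% identity over at least 100 bases, same strand). Size classes rest on annotated length, not on sequence. Likeness is Pearson correlation of log2 CPM (prior count 2). Permutations used scipy 1.17.1 under Python 3.11.15, tables pandas 2.3.3, and plots matplotlib 3.10.9.

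The named transcripts are the members, the named U1 and U2 genes and Rnu7, the copies and neighbours of the members, the 5 nearest in pattern to each, and those singled out afterwards (Rnu5g, Gm25939, Gm22805), besides the marker genes Malat1, Meg3, Rian, Mir17hg and the miR-9 loci. Members and lists were chosen with earlier results of these data known. The alternatives tried were other scalings, count filters, tests and count columns, classes or copies summed, and each library left out.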

Additional observations from a re-analysis of the deposited data

How the results depend on the processing

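The sign of each log2 value held in every alternative run, for both members and the 3 ratios, but its size did not always hold. The log2 fold change of Rnu11 (0.57) ranged from 0.15 to 1.31 with single libraries left out and passed the threshold only without UD-P19 replicate 1 (1.31). That of Rnu12 (1.24) ranged from 0.956 to 1.54, and fell short of the threshold without UD-P19 replicate 3 (1.10) and P19N replicates 4 (1.06), 5 (1.28) and 6 (1.05). With the count minimum applied afresh it ranged from 0.903 to 1.38 and was called in 3 of 6 fits, being lost without UD-P19 replicate 3 (1.08), P19N replicate 4 (0.903) and P19N replicate 5 (1.08). That alternative, exact counts and summed copies were chosen after seeing the data. The number of transcripts called (309) was 127 with unique counts, of 510 tested, and 173 to 530 with single libraries left out (530 without UD-P19 replicate 2, 201 without P19N replicate 4 and 173 without P19N replicate 5), or 199 to 533 with the minimum applied afresh. U12 per U2-sized count, -0.91 on the log2 scale, was -0.15 with unique counts; the cause was not tested. The permutation tests could not go below 0.1, or 0.2 with a library left out, so they say nothing about stability. No paired analysis was possible because the groups share no replicate numbers. Leaving a library out leaves 2 in its group. Counts of Rnu11 and Rnu12 were at least 473 in every library. The parts of counting error and of spread between libraries in their standard errors were not separated.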
